A study of Mus musculus with 16 samples.

Results

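The report concerns 10 mouse genes of the killer cell lectin-like receptor (KLR) family, taken by name: Klrd1 (CD94), Klrc1 and Klrc2 (NKG2A and NKG2C), Klrk1 (NKG2D), Klre1, Klri1, Klri2, Klrb1c and Klrb1f (NKR-P1 receptors) and Klrg1. They are 10 of the 55401 genes in the deposited tables. By the study's methods for differentiation in culture, the cells were CD8+ T cells of the OT-I line, whose transgenic antigen receptor recognises an ovalbumin peptide. The legend for the TM sequencing names splenic T cells, and the library titles do not name OT-I. Poly(A) RNA of these cells was sequenced. They were taken from WT animals or from the TPdh-/- line, where a Cre driven by the Cd4 promoter deletes a floxed allele of Pdha1, a subunit gene of the pyruvate dehydrogenase complex, in T cells. After activation with the ovalbumin peptide they were kept with IL-2, which gave effector cells (TE), or with IL-15, which gave memory cells (TM). The 4 groups were thus WT TE, TPdh-/- TE, WT TM and TPdh-/- TM, each with 4 libraries, called here by their numbers in the labels (1 to 4, 5 to 8, 9 to 12 and 13 to 16). By the methods, all 4 groups carry the OT-I receptor and all were activated, so no group shows resting cells. A Cd4-driven Cre acts in thymocytes before the CD4+ and CD8+ lineages part. Mice of both sexes were used, and whether the WT mice carried the Cre transgene is not given in the sources used here. The labels name no separate animals or cultures for the libraries, so the p values below measure the spread between these libraries, part of which may be technical. The study counts more mice per condition for its TM sequencing than there are libraries in a group here, and how mice relate to libraries is not given in the sources used here.

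Receptors of this family sit on natural killer (NK) cells and on subsets of activated CD8+ T cells, where they set a threshold for killing and cytokine release. CD94 forms pairs with NKG2A or NKG2C that read the non-classical MHC molecule Qa-1b, and NKG2A carries inhibitory motifs while NKG2C signals through the adaptor DAP12 (Tyrobp). NKG2D recognises stress-induced ligands and signals through DAP10 (Hcst). KLRE1 pairs with KLRI1 or KLRI2, NKR-P1C is the NK1.1 antigen of the C57BL/6 strain, and KLRG1 is an inhibitory receptor for cadherins that marks terminally differentiated effector T cells.

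All 10 genes lie on chromosome 6 (GRCm38). Klrg1 (ENSMUSG00000030114) spans 122270596 to 122282882 on the minus strand, and the 9 others lie between 128778485 and 129740484, in the NK gene complex. In order they are Klrb1c, Klrb1f, Klre1, Klrd1, Klrk1, Klrc2, Klrc1, Klri1 and Klri2. Klrd1 (129591782 to 129598775, plus strand) and Klrk1 (129610323 to 129623864, minus strand) are direct neighbours among the 10, as are Klrc2 (129647496 to 129660689) and Klrc1 (129666015 to 129678973), both on the minus strand.

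Some of these genes are so alike that reads cannot always be assigned, which bears on the values of Klrc1 and Klrc2. In the GENCODE M21 annotation the coding parts of Klrc1 and Klrc2 were identical at 81.0% of aligned bases, those of Klri1 and Klri2 at 77.5%, and those of Klrb1c and its neighbour Klrb1a at 76.7%. Of the 50-base stretches in the transcripts of a gene, 38.6% for Klrc1, 16.3% for Klrc2 and 17.0% for Klrb1c also occurred in another gene, against 5.83% for Klri1, 2.77% for Klri2 and at most 0.308% for the other 5. Klrb1c also shares 413 of its 2961 exonic bases with Gm44511. The longest run without a difference between Klrc1 and Klrc2, 100 bases at positions 633 to 732 of the Klrc1 coding sequence, is shown because a fragment that falls inside it fits both genes.
Klrc1 and Klrc2 shared coding run: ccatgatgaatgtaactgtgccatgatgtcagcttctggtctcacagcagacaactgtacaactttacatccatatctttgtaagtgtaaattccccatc

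Promoters of 7 of the 10 genes could be matched in RefSeq (GRCm38.p6, 250 bases before to 50 bases after the start), namely Klrb1c, Klrb1f, Klrc1, Klrc2, Klre1, Klri1 and Klrk1. Klrd1, Klrg1 and Klri2 were not matched. The letters of a RUNX motif (TGTGGT or TGCGGT, on either strand) were found in 5 of the 7 (Klrb1c, Klrc1, Klrc2, Klre1 and Klrk1), where 22.5% of 27025 promoters of this length hold them. An ETS motif (GGAAGT) was found in 2 of 7 (24.1% of all promoters), a STAT motif (TTCNNNGAA) in 1 of 7 (8.47%), a T-box motif (TCACAC) in 1 of 7 (14.4%) and a ZEB motif (CAGGTG) in none of the 7 (20.03%). A match is a description of the sequence and shows no binding. The promoters of Klrc1 and Klrc2 are printed because the coding parts of these genes are alike and their promoters can be compared with them, those of Klrk1 and Klrb1c because the first fell and the second did not pass the test in TPdh-/- TE while both rose in TPdh-/- TM. Each is read 5′ to 3′ on the minus strand, and capitals mark RUNX letters (ACCACA on the reverse strand) and, in Klrb1c, the ETS letters GGAAGT.
Klrc1 promoter, chr6:129678924-129679223: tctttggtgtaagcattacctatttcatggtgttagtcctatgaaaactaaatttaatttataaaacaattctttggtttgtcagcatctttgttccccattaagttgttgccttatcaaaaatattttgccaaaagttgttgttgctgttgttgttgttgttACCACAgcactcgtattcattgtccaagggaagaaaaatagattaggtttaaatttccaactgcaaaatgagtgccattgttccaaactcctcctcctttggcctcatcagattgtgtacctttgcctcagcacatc
Klrc2 promoter, chr6:129660547-129660846: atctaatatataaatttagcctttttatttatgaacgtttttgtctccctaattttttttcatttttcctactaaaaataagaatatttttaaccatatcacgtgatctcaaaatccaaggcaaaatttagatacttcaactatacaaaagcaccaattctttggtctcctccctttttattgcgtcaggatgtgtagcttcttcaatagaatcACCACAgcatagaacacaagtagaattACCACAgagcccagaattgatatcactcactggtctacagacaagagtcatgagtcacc
Klrk1 promoter, chr6:129623815-129624114: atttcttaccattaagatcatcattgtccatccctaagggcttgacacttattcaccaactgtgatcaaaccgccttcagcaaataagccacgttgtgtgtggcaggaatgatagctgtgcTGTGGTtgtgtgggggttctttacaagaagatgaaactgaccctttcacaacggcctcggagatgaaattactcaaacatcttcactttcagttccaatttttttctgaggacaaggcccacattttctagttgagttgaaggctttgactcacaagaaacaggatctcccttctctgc
Klrb1c promoter, chr6:128788592-128788891: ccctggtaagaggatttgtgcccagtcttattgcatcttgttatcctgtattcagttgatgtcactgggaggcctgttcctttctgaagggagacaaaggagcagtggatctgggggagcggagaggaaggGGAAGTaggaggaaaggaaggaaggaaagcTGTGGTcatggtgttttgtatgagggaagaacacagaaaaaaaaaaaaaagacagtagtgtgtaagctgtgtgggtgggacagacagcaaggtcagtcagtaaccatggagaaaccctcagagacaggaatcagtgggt
In these windows the RUNX letters began at position -87 from the start in Klrc1, at -36 and -9 in Klrc2, at -129 in Klrk1 and at -89 in Klrb1c, and the ETS letters of Klrb1c at -119.

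The libraries held 53007257 to 73507566 counts, of which 6866 to 46247 fell on the 10 genes. Pdha1 counts do not check the genotype well, since reads over the whole transcript are summed and exons were not counted apart. The mean was 178 CPM (counts scaled to a common library size) in WT TM and 153 in TPdh-/- TM, and 161 and 153 in TE. In edgeR's quasi-likelihood test the difference was log2 -0.22 in TM (adjusted p = 0.00556) and -0.08 in TE (adjusted p = 0.285). The study detected no Pdha mRNA and no PDHA protein in TPdh-/- T cells. Why Pdha1 reads remained here was not tested. Marker genes of T cells were present in all libraries, with none of 10 at 0, and their summed level in TPM (scaled for transcript length and library total) was 4060 to 5282 in TM and 3170 to 4383 in TE. WT TM library 12 and TPdh-/- TE library 5 stood apart from the other libraries of their groups over all genes, and the calls that change without them are given with both values. TPdh-/- TM library 13 also differed from libraries 15 and 16 (chi-square per degree of freedom 43.8 and 33.1), though less from library 14 (19.6). Pairs of that group without library 13 gave 16.4 to 23.5. In bulk RNA, fewer or more cells that express a gene cannot be told apart from less or more RNA per cell.

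**Figure D1:**
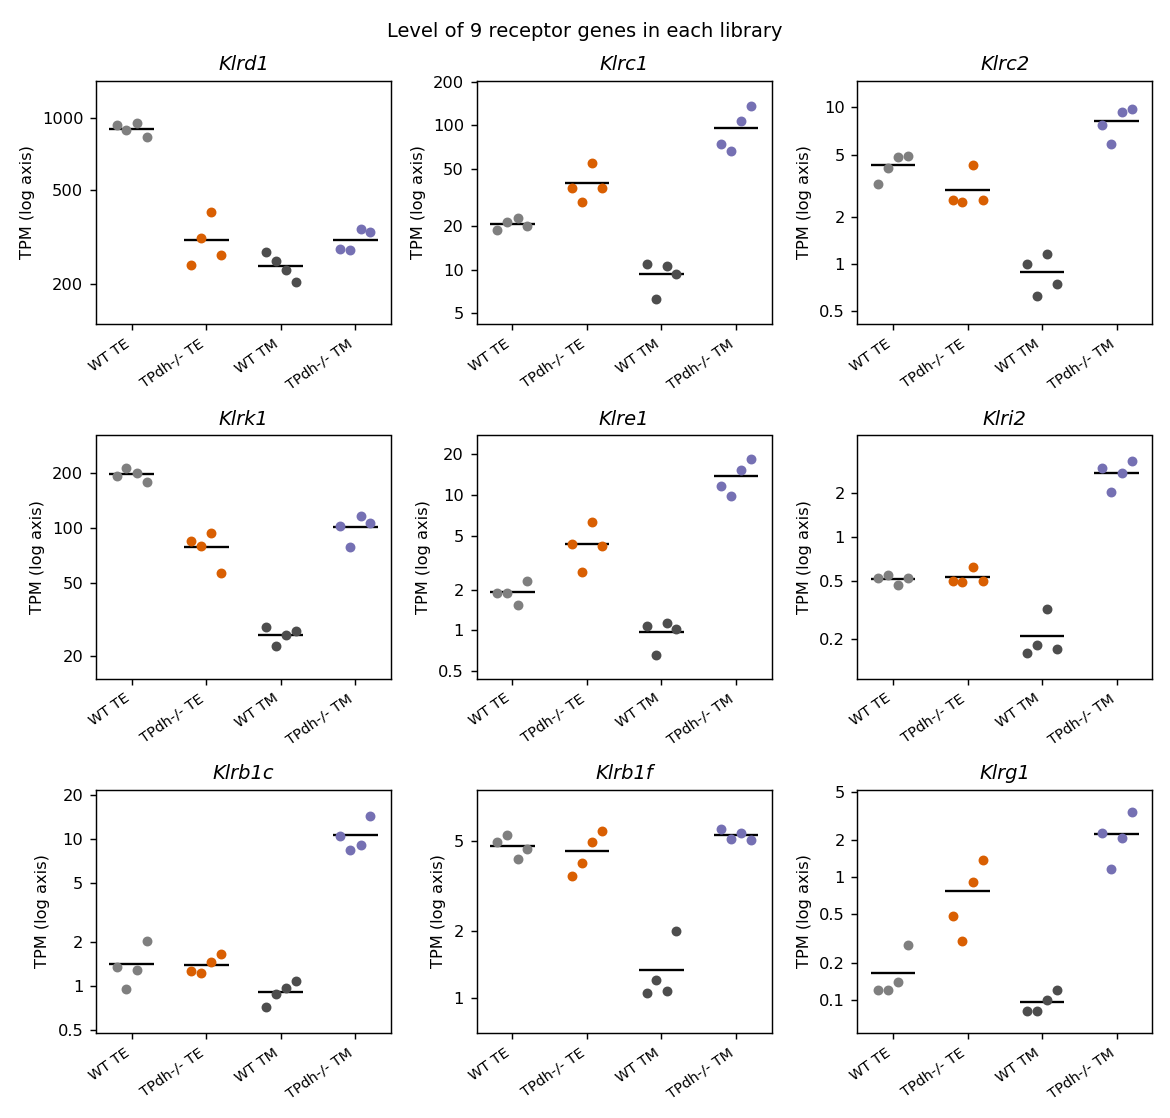
Level of 9 of the 10 genes in TPM (log axis, a separate range in each panel) in the 4 libraries of each group, with a point per library and a bar at the mean. WT TM holds the lowest mean of all 9, and TPdh-/- TM or WT TE the highest; Klri1, with 0 to 4 counts per library, is not drawn.

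Levels differed widely between the genes. By TPM, which is scaled for transcript length, the order in WT TE was Klrd1 (mean 904), Klrk1 (196), Klrc1 (20.8), Klrb1f (4.78), Klrc2 (4.27), Klre1 (1.92), Klrb1c (1.40), Klri2 (0.515) and Klrg1 (0.165). In TPdh-/- TM the order was Klrd1 (307), Klrk1 (101), Klrc1 (96.0), Klre1 (13.8), Klrb1c (10.6), Klrc2 (8.18), Klrb1f (5.33), Klri2 (2.77) and Klrg1 (2.26). Klri1 was listed at 0 to 0.13 TPM, from at most 4 counts in a library, and was removed with other genes of low counts before testing. Its count of 0 in every WT TE library allows up to 3 counts per library, or 0.0446 to 0.0498 CPM of the library total.

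In TM the receptor genes were higher in TPdh-/- than in WT cells. All 9 genes that passed the filter on low counts rose (adjusted p below 0.05 in edgeR's quasi-likelihood test, Benjamini-Hochberg over 15277 genes), and none fell. Over all genes tested 18.3% were called, 11.0% higher and 7.27% lower, and the median log2 change was within 0.02 of 0 in each of the 7 contrasts used here. The receptors were chosen with earlier results of these data known, so the 9 calls describe them and do not test them as a set. Klrg1, at 4 to 6 counts in WT TM and 8 to 17 in WT TE, passed the filter through the TPdh-/- libraries. The changes ran from log2 0.41 for Klrd1 to 4.57 for Klrg1, with a median of 3.40. In 8 of the 9 genes no TPdh-/- TM library overlapped a WT TM library on the CPM scale, and Klrd1 was the exception. The share of all genes without overlap was not computed, so this count only describes the 9 genes.

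In TE the same genotype comparison went in several directions. Klrg1, Klre1 and Klrc1 rose in TPdh-/- TE, Klrd1, Klrk1 and Klrc2 fell, and Klrb1f, Klrb1c and Klri2 did not pass the test, where 31.6% of all genes tested were called, 17.3% higher and 14.3% lower. The genes were gathered in the knowledge that several changed in opposite directions in the 2 cultures, so this contrast between cultures describes them and does not set them apart from other genes. The interaction, the genotype difference in TM minus that in TE, was above 0 for all 9 (log2 2.15 to 3.84, edgeR adjusted p from 4.98e-08 to 0.0263), where 15.6% of all genes tested were called, 8.05% above and 7.51% below 0. Leaving out WT TM library 12 and TPdh-/- TE library 5 together left 8 genes called in TM, 5 in TE and 8 for the interaction. The calls lost were Klrd1 in TM (log2 0.30, edgeR adjusted p = 0.0944), Klrc2 in TE (log2 -0.52, adjusted p = 0.0885) and the interaction of Klrg1 (log2 2.40, adjusted p = 0.0601).

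**Figure D2:**
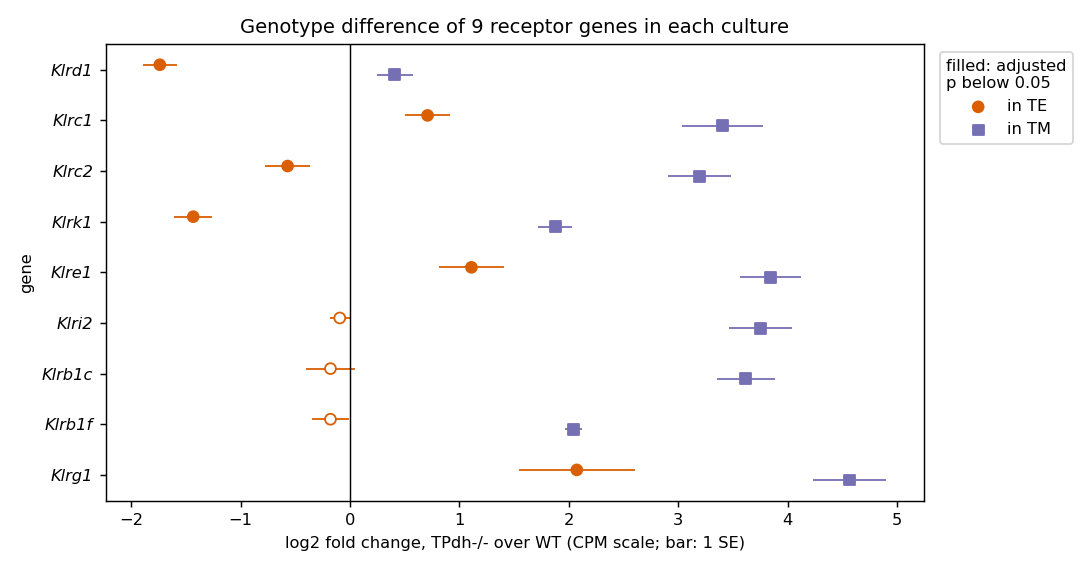
Log2 fold change of TPdh-/- over WT in TE (circles) and in TM (squares) for the 9 genes tested. Filled symbols mark an edgeR adjusted p below 0.05. Bars show 1 SE, calculated from library-to-library variation in log2 CPM within each group compared and not taken from edgeR, so they do not show which calls passed. In TM all 9 squares lie above 0, from 0.41 for Klrd1 to 4.57 for Klrg1, and in TE the circles run from -1.74 for Klrd1 to 2.07 for Klrg1.

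Klrd1, the CD94 chain that every NKG2A or NKG2C receptor needs, was by far the most abundant of the 10 genes. WT TE libraries held 937, 889, 959 and 830 TPM. TPdh-/- TE libraries held 239, 313, 403 and 264 TPM, all below every WT TE library. In TM the values were 271, 249, 228 and 202 TPM in WT and 281, 277, 341 and 329 TPM in TPdh-/-. Klrd1 thus fell by 1.74 on the log2 scale in TPdh-/- TE (SE 0.15, edgeR adjusted p = 1.27e-07), a 3.34-fold difference. In TM the difference was log2 0.41 (SE 0.17) with an edgeR adjusted p of 0.0483, the weakest call of the 9. The call was lost when any of 10 of the 16 libraries was left out. Without WT TM library 12 the difference was log2 0.30 (edgeR adjusted p = 0.141). The call was also lost in the limma fits on TPM (adjusted p = 0.0832 and 0.0912) and in edgeR on only the groups compared (0.0562). The TM and TE differences of Klrd1 differed from each other (interaction log2 2.15, SE 0.23, edgeR adjusted p = 2.10e-06).

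Klrc1, the inhibitory NKG2A chain, was higher in TPdh-/- cells of both cultures. The 4 WT TM libraries held 11.0, 6.33, 10.6 and 9.43 TPM. The 4 TPdh-/- TM libraries held 74.6, 66.6, 107 and 135 TPM, all far above the WT TM libraries. The change was log2 3.40 (SE 0.37, edgeR adjusted p = 2.04e-07), or 10.6-fold. In TE the libraries held 19.0, 21.3, 22.7 and 20.03 TPM in WT and 37.1, 29.6, 55.3 and 37.0 TPM in TPdh-/-, again without overlap. That difference was log2 0.71 (SE 0.20, edgeR adjusted p = 0.0372). It was not called when any 1 of the 4 WT TE libraries or TPdh-/- TE library 7 or 8 was left out, with adjusted p between 0.0553 and 0.14.

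Klrc2, the activating NKG2C chain, rose in TPdh-/- TM and fell in TPdh-/- TE. WT TM libraries held 1.00, 0.620, 1.16 and 0.750 TPM, and TPdh-/- TM libraries 7.76, 5.86, 9.29 and 9.82 TPM (log2 3.19, SE 0.29, edgeR adjusted p = 6.91e-08). In TE the values were 3.26, 4.10, 4.80 and 4.92 TPM in WT and 2.57, 2.50, 4.29 and 2.58 TPM in TPdh-/-, so that library 7 lay within the WT range. Klrc2 fell there by 0.57 on the log2 scale (SE 0.20, edgeR adjusted p = 0.0448), a call that was lost in both fits on TPM (adjusted p = 0.0840 and 0.0744) and without any of 6 single libraries (0.0802 to 0.120). With the counts of Klrc1, Klrc2 and the similar Klrc3 summed, so that shared reads could not be split wrongly, the TM difference was log2 3.37 (edgeR adjusted p = 1.67e-07) and the TE difference log2 0.44 (adjusted p = 0.173). Klrc1 makes up most of that sum, so the sum does not give the direction of Klrc2, and how far the division of shared reads by RSEM sets it was not tested.

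The CD94 to NKG2 balance was examined as the ratio of TPM (each + 0.1) within a library, with exact 2-sided permutation tests of 4 against 4 libraries whose smallest p is 0.0286. Among 24 such tests over 6 gene pairs and 4 contrasts, 17 had a Benjamini-Hochberg adjusted p below 0.05, each at 0.0403, which follows from the smallest exact p and the number of tests that reached it. The ratio Klri1 over Klre1 accounts for 4 of them and is set by the pseudocount, since Klri1 was near 0, so 13 of 20 remain. For each ratio the values below are geometric means.

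Klrc1 rose against its partner Klrd1 in TPdh-/- cells of both cultures. In WT TE the ratio was 0.0204 to 0.0242 and in TPdh-/- TE 0.0947 to 0.156, so no library overlapped (means 0.0231 and 0.130, exact permutation p = 0.0286, adjusted p = 0.0403). In WT TM it was 0.0258 to 0.0471 and in TPdh-/- TM 0.240 to 0.411 (means 0.0391 and 0.302, same exact p). Klrc2 over Klrd1 followed, from 0.00478 to 0.0101 in TE and from 0.00406 to 0.0266 in TM (exact permutation p = 0.0286 in each). Klrc1 over Klrc2 was 4.82 in WT TE and 12.9 in TPdh-/- TE (exact permutation p = 0.0286, adjusted p = 0.0403), and 9.62 and 11.4 in TM, where the exact p was 0.171. This last ratio depends on the split of shared reads between the pair of genes. In TE Klrd1 was lower and Klrc1 higher, and in TM the difference of Klrc1 was much the greater of the pair.

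**Figure D3:**
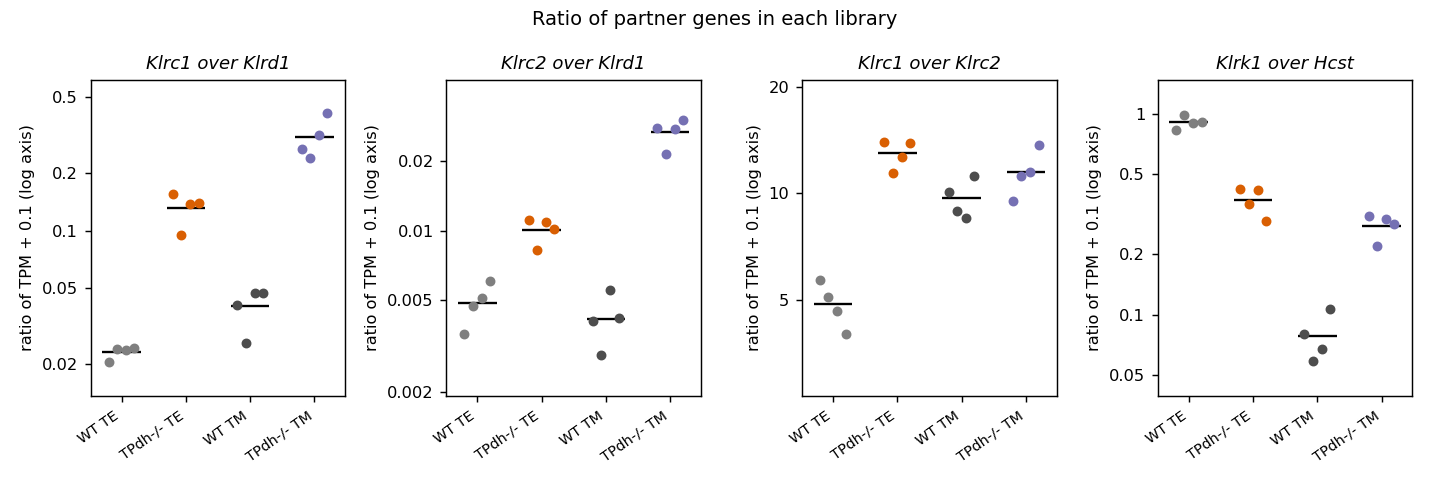
Ratio of TPM + 0.1 for 4 gene pairs (log axis) in each library, with a bar at the arithmetic mean of the 4 libraries of a group. Klrc1 over Klrd1 reaches 0.240 to 0.411 in TPdh-/- TM against 0.0258 to 0.0471 in WT TM, and Klrk1 over Hcst is highest in WT TE (0.836 to 0.988).

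Klrk1, which encodes the activating receptor NKG2D, fell in TPdh-/- TE and rose in TPdh-/- TM. WT TE libraries held 191, 213, 201 and 179 TPM, and TPdh-/- TE libraries 84.5, 79.8, 94.2 and 56.6 TPM. WT TM libraries held 28.7, 22.6, 25.9 and 27.5 TPM, and TPdh-/- TM libraries 103, 78.8, 117 and 107 TPM. In neither culture did the genotypes overlap. Klrk1 fell by 1.43 on the log2 scale in TE (SE 0.17, edgeR adjusted p = 9.42e-07), or 2.7-fold, and rose by log2 1.87 in TM (SE 0.15, adjusted p = 1.56e-07), or 3.67-fold. Its interaction had the smallest adjusted p of the 9 genes (log2 3.31, SE 0.23, edgeR adjusted p = 4.98e-08).

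Hcst, the DAP10 adaptor through which NKG2D signals, did not follow its receptor. It held 197 to 229 TPM in WT TE and 193 to 226 TPM in TPdh-/- TE, and 260 to 388 TPM in WT TM against 332 to 393 TPM in TPdh-/- TM. The genotype differences were log2 -0.19 (SE 0.08, edgeR adjusted p = 0.265) in TE and 0.02 (SE 0.19, adjusted p = 0.938) in TM. The ratio of Klrk1 to Hcst was 0.906 in WT TE, 0.368 in TPdh-/- TE, 0.0761 in WT TM and 0.275 in TPdh-/- TM. Both genotype differences in this ratio gave an exact permutation p of 0.0286 (adjusted p = 0.0403), as did the lower value of WT TM against WT TE, and TPdh-/- TM against TPdh-/- TE gave 0.0857. Among genes for NKG2D ligands, Ulbp1 (MULT1) rose in TE (log2 0.24, SE 0.04, edgeR adjusted p = 0.0194) and was at log2 0.19 in TM (SE 0.10, adjusted p = 0.0912).

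Klre1, whose product pairs with KLRI1 or KLRI2, was higher in TPdh-/- cells of both cultures. WT TM libraries held 1.07, 0.660, 1.14 and 1.03 TPM and TPdh-/- TM libraries 11.6, 9.78, 15.4 and 18.4 TPM (log2 3.84, SE 0.28, edgeR adjusted p = 8.23e-08). In TE the values were 1.90, 1.90, 1.55 and 2.33 TPM in WT and 4.35, 2.69, 6.30 and 4.18 TPM in TPdh-/- (log2 1.11, SE 0.29, adjusted p = 0.00356). Neither comparison had overlapping libraries.

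Klri2, the activating partner, rose in TM and not in TE. Its 4 WT TM libraries held 0.16, 0.18, 0.32 and 0.17 TPM, from 29 to 60 counts, and its TPdh-/- TM libraries 2.98, 2.02, 2.75 and 3.31 TPM, from 358 to 607 counts (log2 3.75, SE 0.29, edgeR adjusted p = 5.61e-09). In TE all 8 libraries lay between 0.470 and 0.620 TPM, and the difference was log2 -0.09 (SE 0.09, adjusted p = 0.750). The ratio of Klri2 to Klre1 was therefore 0.307 in WT TE against 0.146 in TPdh-/- TE (exact permutation p = 0.0286, adjusted p = 0.0403), and 0.285 against 0.209 in TM (exact p = 0.114). Klri1, the inhibitory partner, was near the limit of detection in every group, with the most counts, 4, in TPdh-/- TM library 15.

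Klrb1c, the gene of the NK1.1 antigen, differed between genotypes in TM and not detectably in TE. WT TM libraries held 0.720, 0.890, 0.970 and 1.08 TPM and TPdh-/- TM libraries 10.5, 8.34, 9.10 and 14.3 TPM, a 12.3-fold difference on the CPM scale (log2 3.62, SE 0.26, edgeR adjusted p = 1.75e-08). In TE the WT libraries held 0.960 to 2.02 TPM and the TPdh-/- libraries 1.22 to 1.64 TPM, inside the WT range (log2 -0.18, SE 0.23, adjusted p = 0.582). Summing Klrb1c with the overlapping Gm44511, an alternative added after the overlap was seen, gave log2 3.62 in TM and -0.12 in TE.

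Klrb1f, another activating NKR-P1 receptor, whose mouse ligands include Clr-g, rose 4.12-fold in TPdh-/- TM with the narrowest error of the 9 genes. WT TM libraries held 1.05, 1.20, 1.08 and 2.00 TPM and TPdh-/- TM libraries 5.65, 5.14, 5.46 and 5.08 TPM (log2 2.04, SE 0.08, edgeR adjusted p = 4.26e-08). The high TPM of library 12 was not seen in its CPM, which was 1.40 against 1.25 to 1.41 in the other WT TM libraries. In TE the values were 4.18 to 5.35 TPM in WT and 3.49 to 5.59 TPM in TPdh-/- (log2 -0.18, SE 0.17, adjusted p = 0.318), and without TPdh-/- TE library 8 the difference passed the test (log2 -0.33, adjusted p = 0.0426). Clec2i, the gene of Clr-g, rose in TPdh-/- TE (log2 0.43, SE 0.09, edgeR adjusted p = 0.000226) and was at log2 0.18 in TM (adjusted p = 0.0876).

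Klrg1 had the greatest fold change and the fewest counts of the 9 genes. WT TM libraries held 5, 4, 6 and 6 counts and TPdh-/- TM libraries 120, 63, 134 and 192 counts, or 0.0800 to 0.120 TPM against 1.17 to 3.45 TPM. The fold change was 23.7 (log2 4.57, SE 0.33, edgeR adjusted p = 5.20e-06), and with so few WT TM counts its size is less certain than its direction. In TE the WT libraries held 8, 8, 9 and 17 counts and the TPdh-/- libraries 27, 21, 62 and 74 counts (log2 2.07, SE 0.53, adjusted p = 0.00273). The interaction of Klrg1 (log2 2.50, SE 0.62, adjusted p = 0.0263) was not called without WT TE library 4, which held the 17 counts (log2 2.14, adjusted p = 0.0779), nor without WT TM library 9 (2.45, 0.0507). Cdh1, the gene of its ligand E-cadherin, rose in TPdh-/- cells of both cultures, from 4.09 to 7.96 TPM in TM (log2 0.99, SE 0.20, edgeR adjusted p = 0.00400) and from 3.83 to 6.87 TPM in TE (log2 0.70, SE 0.29, adjusted p = 0.0201).

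The cultures themselves separated these genes differently in the 2 genotypes. In WT cells 8 of the 9 genes were lower in TM than in TE and none was higher, where 68.6% of all genes tested were called, 34.3% in each direction. Klrk1 fell most (by 3.0 on the log2 scale, SE 0.10, edgeR adjusted p = 2.90e-11), then Klrc2 (2.28), Klrd1 (2.16) and Klrb1f (2.10). Klrg1, at 8 to 17 counts in WT TE and 4 to 6 in WT TM, did not pass (log2 -0.94, SE 0.26, adjusted p = 0.188). In TPdh-/- cells no gene was lower in TM and 6 were higher, where 67.7% of all genes tested were called, 33.0% higher and 34.7% lower: Klrb1c (log2 2.87, SE 0.21, adjusted p = 4.96e-09), Klri2 (2.38), Klre1 (1.66), Klrg1 (1.56), Klrc2 (1.49) and Klrc1 (1.19). Klrk1 was at log2 0.31 (SE 0.21, adjusted p = 0.0590) and passed in 4 of the other fits, among them DESeq2 (adjusted p = 0.0487), and without TPdh-/- TE library 7 or TPdh-/- TM library 14. Klrd1 was at log2 -0.01 (SE 0.18, adjusted p = 0.936) and Klrb1f at 0.12 (SE 0.17, adjusted p = 0.409).

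The order of the group means gives the same picture, with WT TM lowest for each of the 9 genes tested. The step from WT TM to the next group was called for 8 of them and not for Klrg1 (edgeR adjusted p = 0.188). That next group was WT TE, TPdh-/- TE or TPdh-/- TM, depending on the gene. The count thus mixes contrasts picked by the order itself, and no share over all genes can be set beside it. Klrd1 and Klrk1 were highest in WT TE and 6 genes in TPdh-/- TM, while Klrb1f was highest in WT TE by CPM (5.78 against 5.56 in TPdh-/- TM) and in TPdh-/- TM by TPM (5.33 against 4.78). For Klrb1f the 3 upper groups did not differ between neighbours in the order (adjusted p = 0.409 and 0.713), and for Klrd1 TPdh-/- TM and TPdh-/- TE did not (0.936). Set against WT TE, TPdh-/- TM was higher for 6 genes and lower for Klrd1 (by 1.75 on the log2 scale) and Klrk1 (1.13), where 70.8% of all genes were called, 35.9% higher and 34.9% lower. TPdh-/- TE was above WT TM for all 9, by log2 0.42 for Klrd1 to 3.01 for Klrg1, where 67.0% of all genes were called, 34.4% higher and 32.5% lower. The Klrd1 difference there was not called without TPdh-/- TE library 7 (log2 0.27, adjusted p = 0.0651). These comparisons share their groups with those above.

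Because Klrd1 and Klrk1 hold most of the transcripts, the summed level of the 10 genes hides the others. The sum was 1134 ± 64.2 TPM in WT TE, 438 ± 93.4 in TPdh-/- TE, 278 ± 29.4 in WT TM and 547 ± 83.5 in TPdh-/- TM (SD, n = 4). Klrd1 made up 79.7%, 69.4%, 85.5% and 56.4% of it in the same order. Klrc1 made up 1.83% ± 0.131, 9.08% ± 1.52, 3.38% ± 0.783 and 17.2% ± 3.24, and Klrk1 17.3%, 18.2%, 9.51% and 18.6%. In each of the 4 TPdh-/- TM libraries Klrc1 held 14.6% to 21.6% of the sum, against 2.25% to 3.94% in WT TM.

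**Figure D4:**
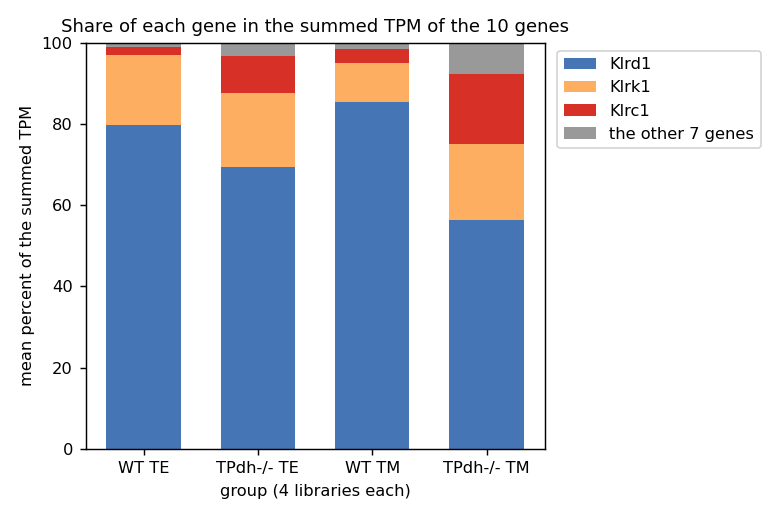
Mean percent of the summed TPM of the 10 genes held by Klrd1, Klrk1, Klrc1 and the other 7 genes together, in 4 libraries per group. Klrd1 holds 85.5% in WT TM and 56.4% in TPdh-/- TM, and Klrc1 3.38% and 17.2%.

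Over the 16 libraries the genes were compared by the correlation of log2 CPM, a description in which the points of a group share its genotype and culture. The closest pairs were Klrc1 and Klre1 (Pearson r = 0.967) and Klre1 and Klrg1 (0.964), and among Klre1, Klrc1, Klrg1, Klri2, Klrb1c and Klrc2 the lowest r was 0.759, for Klrc2 and Klrg1. For Klrd1 and Klrk1 r was 0.856, and r of Klrd1 was -0.20 with Klrg1, -0.07 with Klre1 and -0.04 with Klrb1c but 0.426 with Klrc2 and 0.542 with Klrb1f. Klrc2 and Klrb1f were also close to Klrk1 (0.783 and 0.851) and to each other (0.865). Among 12342 genes outside the family, the one most like Klrk1 was Gzmk, a granzyme gene (r = 0.970), which held 53.2 TPM in WT TE, 14.3 in TPdh-/- TE, 2.20 in WT TM and 15.01 in TPdh-/- TM. The nearest to Klrd1 was the sialyltransferase gene St3gal6 (0.965), and the nearest to both Klrc1 (0.956) and Klrc2 (0.951) was Fcer1g, the FcR gamma adaptor gene. The nearest to Klrb1f was Gpnmb (0.956), to Klrg1 Aoah (0.952), to Klri2 Rgs2 (0.934) and to Klrb1c Samd3 (0.925). The nearest to Klre1 was Trdv4 (0.959), a variable segment of the gamma-delta T cell receptor.

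Of the adaptors, Tyrobp and Fcer1g, through which NKG2C and NKR-P1C signal, rose in TPdh-/- TM, and Hcst did not pass the test. In the list of adaptors and signalling enzymes 4 of 16 genes rose and 5 fell in TPdh-/- TM, and 2 rose and 5 fell in TPdh-/- TE, with medians of log2 -0.05 in each. Tyrobp (DAP12) held 2.08 to 4.33 TPM in WT TM and 31.7 to 52.1 TPM in TPdh-/- TM (log2 3.78, SE 0.30, edgeR adjusted p = 1.75e-08), and 2.08 to 2.49 against 4.01 to 8.14 TPM in TE (log2 1.21, SE 0.22, adjusted p = 0.00159). Fcer1g rose from 1.00 to 2.09 TPM in WT TM to 13.8 to 20.9 TPM in TPdh-/- TM (log2 3.48, SE 0.25, adjusted p = 3.69e-08) and was at log2 0.16 in TE (adjusted p = 0.615). Ptpn6, the SHP-1 phosphatase recruited by inhibitory receptors, fell in TM (by 0.76 on the log2 scale, adjusted p = 5.17e-06) and in TE (by 0.44, adjusted p = 0.000600). Pik3r1 fell in TE (by 0.54, adjusted p = 5.24e-07) and was at log2 -0.04 in TM (adjusted p = 0.672).

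Of 15 ligand genes found in the tables, 6 were expressed enough to be tested, of which 2 rose in TPdh-/- TM and 3 in TPdh-/- TE, and none fell (medians of log2 0.19 and 0.09). H2-T23, which encodes Qa-1b, held 121 to 125 TPM in WT TM and 131 to 170 TPM in TPdh-/- TM (log2 0.36, SE 0.09, edgeR adjusted p = 0.00449), and was at log2 -0.06 in TE (adjusted p = 0.640). Of 14 transcription factor genes tested, 5 rose and 3 fell in TM, and 2 rose and 9 fell in TE (medians of log2 0.08 and -0.34). Zeb2, a factor of terminal effector and NK cell maturation, rose in both (log2 2.23 and 2.66, edgeR adjusted p = 2.20e-06 and 5.23e-07). Id2 and Prdm1 rose in TM (log2 1.14 and 1.62) and fell in TE (by 0.36 and 0.88), and Ets1 fell in both (by 0.21 and 0.39). In the list of 8 genes of the IL-2 and IL-15 receptor pathway, 2 rose in TM, and 1 rose and 3 fell in TE (medians of log2 0.07 and -0.07). Il2ra rose in TM (log2 0.71) and in TE (0.96), Il15ra rose in TM (0.29, adjusted p = 0.00322), and Jak1 and Il2rb, the shared beta chain, fell in TE (by 0.56 and 0.33).

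Other genes of the family were also higher in TPdh-/- TM. Of 8 Ly49 receptor genes tested (of 13), all rose in TM with a median of log2 3.62 and 4 rose in TE with a median of 1.57, as against medians of 3.40 and -0.18 for the 9 genes described here. Over all genes tested 11.0% were higher in TM and 17.3% in TE. The filter on low counts keeps a gene that is high in 1 group only. Klra4, for example, held 95 to 170 counts in TPdh-/- TM libraries and at most 13 in any other. These counts and medians thus describe only the genes kept. In WT cells, where 8 of the 9 fell from TE to TM, 6 of the 8 Ly49 genes rose and 1 fell. Klra5 rose most in TM (log2 5.21, SE 0.23, edgeR adjusted p = 1.75e-08) and was at log2 -0.39 in TE (adjusted p = 0.182), while Klra7, Klra8 and Klra4 rose in both cultures. Klra5 held 1 to 3 counts in WT TM libraries, and Klra8 and Klra4 held 0 to 2 in WT TE libraries. The sizes of these changes are therefore less certain than their directions. Of 4 other tested lectin-like receptor genes 3 rose in TM and 2 in TE (medians of log2 3.16 and 0.89), among them Klrb1b (log2 3.21 and 2.29). The coding part of Klrb1b matched that of Klrb1a at 81.3% and that of Klrb1c at 71.4% of aligned bases, and the likeness of the Klra genes was not measured, so the division of reads among these genes is uncertain.

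Markers of NK cells that are not among the 10 genes also rose in TPdh-/- TM. Summed over 9 of them (Ncr1, Itga2, Fcgr3, Cd244a, Tyrobp, Fcer1g, Klra4, Klra8 and Klra9) the level in TPM was 6.87 to 10.4 in WT TM and 65.7 to 103 in TPdh-/- TM, a ratio of 10.1, and all 9 rose. Over all genes tested 11.0% were higher in this contrast. The list was chosen with earlier results of these data known. Klra4 passed the filter on low counts only with the TPdh-/- TM libraries, so the 9 calls describe these genes. The adaptor genes Tyrobp (mean 44.2 TPM) and Fcer1g (17.6) held most of the TPdh-/- TM sum (mean 87.1), so the ratio mainly reflects them. In TE it was 21.2 to 22.8 in WT and 18.2 to 27.9 in TPdh-/-, a ratio of 1.05, and its members went in different directions. Ncr1, Klra4, Klra8, Klra9 and Tyrobp rose there, and Cd244a (by 1.10 on the log2 scale, edgeR adjusted p = 9.50e-06) and Itga2 (by 0.37, adjusted p = 0.0117) fell. Ncr1 (NKp46), a defining marker of NK cells, was at 0 in 3 of the 4 WT TE libraries (0.01 TPM in the other) and held 0.24 to 0.33 TPM in TPdh-/- TE, 0.43 to 0.82 in WT TM and 6.4 to 9.91 in TPdh-/- TM. Gamma-delta T cell markers (9 genes) summed to 58.5 to 67.8 TPM in WT TM against 181 to 241 in TPdh-/- TM, and to 94.1 to 106 against 218 to 330 in TE, with 8 of 9 higher in each. The 10 macrophage or monocyte markers summed to 5.60 to 6.61 against 22.7 to 38.1 TPM in TM, where 6 of the 7 tested rose. T cell markers fell in part: 7 of 10 in TM (summed ratio 0.807) and 9 of 10 in TE (0.814), and Cd8a was at log2 -0.62 in TM (edgeR adjusted p = 3.77e-05) while Cd3e was at -0.18 (0.0400). The methods describe T cells enriched with isolation kits to a high purity, and do not tie this step to the cultures sequenced here. The part of such cells in the receptor levels was not tested.

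**Figure D5:**
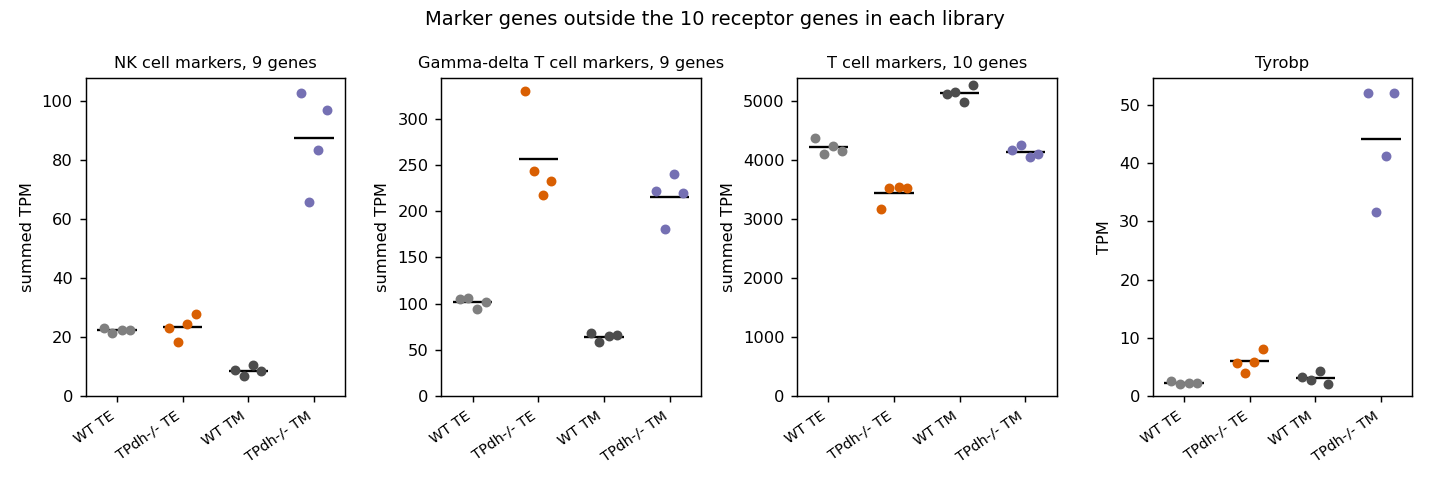
Summed TPM of marker lists without the 10 receptor genes, and TPM of Tyrobp, in the 4 libraries of each group (linear axes from 0, bar at the mean). Tyrobp is also part of the NK cell sum. The NK cell markers reach 65.7 to 103 in TPdh-/- TM against 6.87 to 10.4 in WT TM, with 21.2 to 22.8 in WT TE and 18.2 to 27.9 in TPdh-/- TE.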

How the data were processed

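The files hold 1 line per gene and library. The kit selects poly(A) RNA and keeps no strand. The submitters' processing notes name STAR 2.7.6a, RSEM 1.3.3 and the mm10 build (GRCm38). The deposited expected counts are RSEM estimates that divide reads between similar genes and need not be whole. The deposited TPM and FPKM were scaled by the authors for length and library total, and FPKM was not used. The authors' annotation release is not given in the sources used here. Names and positions came from GENCODE M21, which matched 55141 of 55401 identifiers (99.5%).

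Expected counts were rounded to whole numbers. Low genes were removed by filterByExpr at a minimum count of 10 and a minimum total of 15. On the remaining 15277 genes edgeR 4.0.16 (R 4.3.3) fitted 1 mean per group to all 16 libraries with TMM factors and a quasi-likelihood test. A gene was called below an adjusted p of 0.05. CPM uses the TMM library sizes and log2 CPM a prior count of 2. Each SE comes from the spread of this log2 CPM between the libraries of the groups compared. It is not a quantity of the edgeR fit, so log2 over SE does not give the p value. The prior count can narrow it for genes of few counts, such as Klrg1. Levels of different genes are compared only in TPM. Partner ratios used TPM + 0.1 and exact permutation tests. The fit was checked on simulated data. In the alternatives DESeq2 1.42.0 and limma 3.58.1 were used, and single libraries were left out. Pairs of libraries in a group gave a chi-square per degree of freedom of 8.29 to 72.6, so none was a duplicate. Counting limits cover counting error only. Named outside the 10 receptors were a fixed set (Pdha1, Hcst, Tyrobp, H2-T23, Ncr1, Cd3e and Cd8a), from each list up to 4 genes of smallest adjusted p in a genotype contrast with at least 1 CPM, and the nearest gene to each receptor. The receptors and lists were chosen with earlier results of these data known. Of the other marker lists (CD4 or regulatory T cell, dendritic cell, B cell, plasma cell, mast cell, neutrophil and erythroid cell) the summed TPM in TPdh-/- TM over that in WT TM was 1.87, 6.56, 2.14, 3.80, 1.88, 1.30 and 0.909. Protein sequences were not used here.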

Additional observations from a re-analysis of the deposited data

Results flagged for a closer look

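In 3 of 39 groups of 4 libraries examined, 1 library lay far from the others of its group, where chance gives about 1 in 20. WT TE library 4 held 0.294 CPM of Klrg1 against 0.144 CPM in the next library. WT TM library 9 held 0.0156 CPM of Klri1, which is 1 count, against 0 in the other libraries. With all others at 0, any count is flagged by this rule, so the Klri1 flag says nothing about that library. WT TM library 11 held 1.03 CPM of Klri2 against 0.537 CPM in the next.

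The difference between TPdh-/- and WT cells was tested between the cultures, as log2 in TM minus log2 in TE, and differed for each of the 9 genes that could be tested in edgeR's quasi-likelihood fit. It was 3.84 for Klri2 (adjusted p = 3.91e-07), 3.80 for Klrb1c (8.09e-07), 3.76 for Klrc2 (7.41e-07), 3.31 for Klrk1 (4.98e-08), 2.73 for Klre1 (0.00011), 2.696 for Klrc1 (7.66e-05), 2.50 for Klrg1 (0.0263), 2.22 for Klrb1f (1.16e-06) and 2.15 for Klrd1 (2.10e-06). Over all genes tested 15.6% were called, 8.05% above and 7.51% below 0. The genes were gathered in the knowledge that several changed in opposite directions in the cultures, so these calls do not set them apart. Klrd1 and Klrk1 fell in TE and rose in TM, as did Klrc2, whose reads are in part shared with Klrc1. The calls of Klrd1 in TM and of Klrc2 in TE were lost in several of the alternative fits. The NK cell markers had a summed ratio of 1.05 in TE, where 5 of 9 rose and 2 fell. In TM that ratio was 10.1, and all 9 rose.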

How the results depend on the processing

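The counts of genes called in the 7 contrasts stayed within 1.5 times their value under each alternative run. With 1 library left out they were 8 to 9 for genotype in TM, 4 to 6 for genotype in TE, 8 to 8 for culture in WT, 6 to 7 for culture in TPdh-/-, 8 to 9 for the interaction, 8 to 8 for TPdh-/- TM against WT TE and 8 to 9 for TPdh-/- TE against WT TM. The ratio tests past the threshold, 17 as reported, were 18 with a pseudocount of 1 and from 0 to 0 with 1 library left out, where 3 against 4 libraries cannot give an exact p below 0.0571, so this says nothing of stability. Signs turned only for differences that had not passed the test, except for Klrc2 in TE, where the sum with Klrc1 and Klrc3 gave log2 0.44, mostly from Klrc1. For genotype in TE Klrb1c gave 0.029 and 0.00976 on TPM with pseudocounts of 0.1 and 1 and -0.33 to 0.00841 with 1 library left out (above 0 without WT TE library 4), and Klri2 gave 0.0257 and 0.0113 on TPM. For TPdh-/- TM against WT TE Klrb1f gave 0.16 and 0.14 on TPM, -0.12 to 0.00192 with 1 library left out (above 0 without WT TE library 1) and 1.48 with similar genes summed. For culture in TPdh-/- Klrd1 gave 0.03 on TPM with either pseudocount (0.0329 and 0.0327) and -0.10 to 0.14 with 1 library left out, above 0 without libraries 7, 13 and 14. With a pseudocount of 1 the log2 ratio of Klrc2 over Klrd1 in the culture contrast of WT was 0.45, that of Klrc1 over Klrc2 in TPdh-/- 0.0252, and those of Klri2 over Klre1 0.24 in WT and -0.17 in TPdh-/-, and the WT value of the last was -0.23 to 0.0146 with 1 library left out (above 0 without library 9). The causes were not tested. Over single genes and alternatives 1484 values kept direction and call, 36 lost the call, 9 gained it and 15 turned. No paired analysis was possible because the groups share no library number. Depth limits Klrg1 (4 to 6 counts in WT TM) and Klri1 (0 to 4).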
